A study of Mus musculus with 10 samples.

Results

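The gp130 cytokines and their receptors were examined in the RNA-seq of mouse dorsal root ganglia (DRG), which hold the cell bodies of the sensory neurons whose axons run in the sciatic nerve. The set holds the 9 genes Il6, Lif, Cntf, Clcf1, Osm, Il6st, Lifr, Osmr and Il6ra, taken by gene symbol from the 54309 genes of the annotation, with the counts of all transcripts of a gene summed. It divides into 5 ligands and 4 receptor subunits. Female and male C57BL/6 mice of 6 to 8 weeks had the left sciatic nerve cut through at mid-thigh (axotomy), or exposed and left intact in separate animals (sham), and the lumbar DRG of the operated side were taken after 24 h. Each sex had 2 sham and 3 axotomy libraries of poly-A RNA, each from the pooled DRG of 2 mice. Neither group carries a transgene or received a drug other than the anesthetic. The whole ganglion was homogenized, so neurons, glia, immune cells and vessels are mixed in each value, and fewer cells of a type cannot be told apart from less RNA per cell.

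Cytokines of this family signal through gp130, the receptor subunit encoded by Il6st. Interleukin 6 first binds its own receptor Il6ra, which exists on membranes and as a soluble form, and the complex then recruits gp130. Leukemia inhibitory factor (Lif), ciliary neurotrophic factor (Cntf) and cardiotrophin-like cytokine (Clcf1) act through gp130 paired with Lifr, the last pair with the help of Cntfr, and oncostatin M (Osm) acts through gp130 paired with Osmr or Lifr. The paired receptors activate the kinases Jak1, Jak2 and Tyk2, and these phosphorylate Stat3, a transcription factor that takes part in the response of sensory neurons to injury of their axons. Cntf is stored in myelinating Schwann cells, whereas Il6 and Lif are induced in nerve and ganglion when axons are cut.

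The libraries held 55258476 to 90111671 estimated counts each, so that 3 counts stood for 0.0333 to 0.0543 CPM (counts scaled to library size), counting error only. Levels below are CPM normalized for library size and composition and for the average effective length of each gene's transcripts, unless TPM is named. All 12 sensory neuron markers had counts, and their sum was 14210 to 22610 CPM. In males all 10 macrophage markers, all 8 fibroblast markers and all 9 myelinating Schwann cell markers rose after axotomy, and 8 of 12 sensory neuron markers fell while 1, the neuropeptide gene Calca, rose (log2FC 0.26, padj = 0.0524). Of 5 mast cell markers 4 (Cma1, Cpa3, Mcpt4 and Tpsb2) rose in males with log2FC of 1.71 to 2.20 and none rose in females, and the fifth, Kit, fell in both sexes. In females 1 macrophage marker rose and 1 fell, 2 fibroblast markers fell, no Schwann cell marker passed and 6 sensory neuron markers fell. The library male axotomy 2 stood apart from the other male axotomy libraries. Chi-square per degree of freedom between counts was 70.07 against male axotomy 1 and 106 against male axotomy 3. Between male axotomy 1 and male axotomy 3 it was 31.06. The macrophage markers summed to 144.6 CPM in male axotomy 2, the lowest of the 3, and to 268 CPM in male axotomy 3. Without male axotomy 2 the genes whose response differed between the sexes went from 0.0192% to 10.5% of those tested.

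In the fit used for all members, Il6 was the only member that passed in both sexes, and without the length term Lif did so too. In females Il6 and Clcf1 were upregulated and no member was downregulated, among 8 of 9 members tested by edgeR's quasi-likelihood test at padj under 0.1. Over all 20836 genes tested, 10.4% were upregulated and 9.74% downregulated in females. In males Il6 and Cntf were upregulated and Lifr was downregulated, where 21.8% of all genes were upregulated and 20.1% downregulated (41.9% in either direction). The median log2FC of the 8 tested members was 0.15 in females and 0.36 in males, against medians over all genes of 0.00044 and 0.027. Osm had too few counts for the filter and was not tested. With 2 sham and 3 axotomy libraries per sex, groups that do not overlap are common. They did not overlap in 52.1% of all genes in females (26.2% higher after axotomy, 25.9% lower) and in 57.5% in males (29.3% higher, 28.2% lower), and 4 of 9 members had this pattern in each sex, so a lack of overlap below describes the libraries and is not a result about the members.

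**Figure D1:**
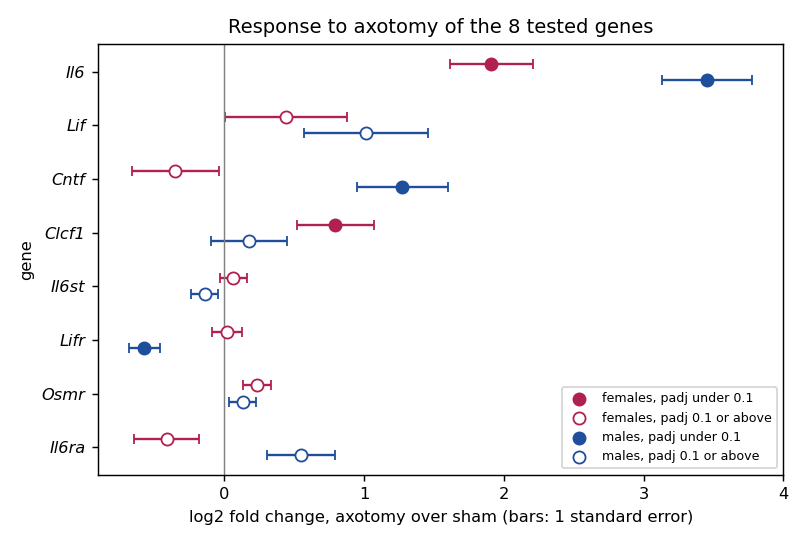
The log2 fold change of axotomy over sham (x axis) for the 8 tested members (y axis) in females (red) and males (blue), with bars of 1 standard error and filled points at padj under 0.1. Il6 stands farthest to the right at 1.91 in females and 3.45 in males, and Lifr in males is the only filled point left of 0, at −0.57.

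The stretches upstream of Il6, Lif and Cntf are shown because these 3 ligands carry, in the 300 bases around a RefSeq gene start, the 7-letter element of AP-1, the factor family of Jun, Fos and Atf3 that is known from injured neurons. Promoters of 7 of the 9 members were found (8 promoters, RefSeq, GRCm38.p6), and Clcf1 and Osm had no entry. The motif searched was TGANTCA on both strands, which reads the same on either, and it is in capitals. The stretches run from base −250 to base −51 before the start, on the strand of the gene, and lie at chr5:30012864-30013063 (plus strand, Il6), chr11:4257318-4257517 (plus strand, Lif) and chr19:12765683-12765882 (minus strand, Cntf).
Il6: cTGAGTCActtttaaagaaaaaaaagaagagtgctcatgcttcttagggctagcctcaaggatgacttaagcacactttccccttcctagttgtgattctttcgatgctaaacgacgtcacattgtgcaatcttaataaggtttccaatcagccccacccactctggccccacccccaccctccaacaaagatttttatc
Lif: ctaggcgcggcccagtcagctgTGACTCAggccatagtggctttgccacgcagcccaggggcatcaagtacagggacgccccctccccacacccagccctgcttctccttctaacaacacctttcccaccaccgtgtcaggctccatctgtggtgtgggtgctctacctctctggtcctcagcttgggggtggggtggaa
Cntf: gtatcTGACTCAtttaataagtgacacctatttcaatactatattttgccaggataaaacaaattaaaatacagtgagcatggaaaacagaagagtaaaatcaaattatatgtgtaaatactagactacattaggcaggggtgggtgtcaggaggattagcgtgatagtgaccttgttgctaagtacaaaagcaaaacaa
The element began at base −249 of Il6, −228 of Lif and −245 of Cntf, and Osmr held a match at base 4 after its start. Of all 32851 promoters of the same length in the table, 7.81% held this element. The STAT element TTCNNNGAA, also read on both strands, was found in none of the 8 promoters of members and in 8.3% of all promoters. A match is a run of letters and not a measured binding site.

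Il6, the cytokine that gave the family its name, was low in sham and rose after axotomy in both sexes. The levels were 1.09 and 0.607 CPM in the female sham libraries and 0.383 and 0.515 CPM in the male sham libraries. After axotomy they were 3.56, 3.59 and 2.54 CPM in females and 6.17, 4.19 and 4.28 CPM in males. Every axotomy library lay above every sham library, which 13.5% of all genes also showed (28.3% in either direction), and Il6 was the only member of 9 with that pattern. The increase was 3.76-fold in females (log2FC 1.91 ± 0.30 SE, padj = 0.00345) and 11.0-fold in males (log2FC 3.45 ± 0.32 SE, padj = 0.000252) by edgeR. The call held in both sexes in all 17 alternative fits, with log2FC of 1.56 to 2.41 in females and 3.24 to 3.65 in males when 1 library was left out.

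The male sham libraries lay below the female sham libraries for Il6, and the male axotomy libraries lay above the female axotomy libraries, as in 20.5% and 8.97% of all genes. The response was 1.54 ± 0.42 (SE) log2 units larger in males, with padj = 0.258 for the difference by edgeR. The difference passed when male axotomy 2 was left out (log2 difference 1.64, padj = 0.0642) and with DESeq2 (1.53, padj = 0.0394). Macrophage markers, at 76.21 to 87.13 CPM in male sham and 144.6 to 268 CPM in male axotomy, rose in males as Il6 did. In females, where the same markers summed to 100.1 to 123.3 CPM in sham and 111.9 to 165.5 CPM after axotomy, Il6 rose too. Per 1000 CPM of these markers, Il6 was 5.02 to 8.87 CPM in the sham libraries of both sexes. It was 16 to 31.2 CPM in the axotomy libraries, a ratio chosen after the values were seen. The 5 mast cell markers summed to 90.81 to 93.65 CPM in male sham and 76.39 to 103.6 CPM in male axotomy, which overlap. In females they summed to 98.1 to 98.73 CPM in sham and 76.04 to 81.66 CPM after axotomy. The 4 markers other than Kit, a sum chosen after the values were seen, were at 5.27 to 6.57 CPM in male sham. In male axotomy that sum was 12.8 to 31.5 CPM. In females it went from 7.97 to 9.91 CPM in sham to 7.22 to 9.40 CPM after axotomy. All 4 were higher in males than in females after axotomy by edgeR (padj of 0.0498 to 0.0859). With 1 library left out, 0 to 4 mast cell markers passed as higher. Leaving out any library other than male axotomy 2 moved this count by over 1.5 times, as did fitting only the libraries compared. The part of macrophages and mast cells in the values of Il6 and of Cntf, which rose in males too, was not tested. All 4 annotated Il6 transcripts are protein-coding. Il6-201 was assigned 26.4% of the Il6 counts in female sham and 14.6% in male sham, against 54.4% and 60.7% after axotomy. Il6-204 was assigned 62.3% and 52.5% in sham and 27.4% and 24.9% after axotomy. The sham shares rest on 107 Il6 counts in females and 57 in males, and in single libraries the share of Il6-201 ran from 0 to 68.5%. The division of shared reads between transcripts is uncertain, and these shares were not tested.

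Lif, which acts through gp130 and Lifr, did not pass in either sex in the fit used for all members, and its result turned on the length term of that fit. The levels were 1.16 and 0.769 CPM in female sham, 0.752 and 0.628 CPM in sham males, 1.58, 1.58 and 0.824 CPM in female axotomy and 1.58, 0.700 and 1.98 CPM in male axotomy. In each sex 1 axotomy library lay among the sham libraries. The log2FC was 0.44 ± 0.44 in females (padj = 0.544) and 1.01 ± 0.44 in males (padj = 0.104).

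Without the term for transcript length, every axotomy library lay above every sham library for Lif as well. As plain CPM the sham libraries stood at 0.934, 0.530, 0.569 and 0.634, the female axotomy libraries at 1.81, 1.41 and 1.03, and the male axotomy libraries at 1.89, 1.13 and 1.88. Fitted this way, Lif rose by log2FC 0.94 ± 0.32 in females (padj = 0.0737) and 1.39 ± 0.33 in males (padj = 0.00842). The effective length of Lif ran from 1694 nt in female sham 2 to 3875 nt in male axotomy 2. The 390-nt non-coding transcript Lif-203 held 2.59% of the Lif counts and 38.2% of the Lif TPM, so a few reads of it move the average length. With protein-coding transcripts alone, an alternative chosen after the values were seen, the male log2FC was 1.40 with padj = 0.0142. In females Lif did not pass in that fit, and the fit without the length term was the only alternative in which it did. Leaving out male axotomy 2 (log2FC 1.36, padj = 0.0104) or female axotomy 3 (1.01, padj = 0.0841) also gave a call in males, as did DESeq2 (1.01, padj = 0.0701).

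Cntf, the Schwann cell factor that supports injured motor and sensory neurons, rose in males and did not pass in females. Its levels in sham were 94.3 and 72.1 CPM for females and 43.3 and 42.0 CPM for males. They were 88.8, 63.5 and 43.1 CPM in female axotomy and 117, 70.7 and 122 CPM in male axotomy. All male axotomy libraries lay above both male sham libraries, as in 29.3% of all genes, while the female groups overlapped. The log2FC was 1.28 ± 0.33 in males (2.42-fold, padj = 0.0188) and −0.35 ± 0.31 in females (padj = 0.501). The male call was lost at padj = 0.1003 without male sham 1 and at padj = 0.107 without male sham 2 (log2FC 1.24), and held in the other 15 alternatives.

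The male sham level of Cntf was below the female sham level in both libraries of each group (log2 difference −0.96 ± 0.35, padj = 1). The difference between the male and female responses was 1.63 ± 0.45, with padj = 0.274 by edgeR, 0.0579 without male axotomy 2 and 0.0611 with DESeq2. Myelinating Schwann cell markers followed the same order. They summed to 5836 to 8131 CPM in female sham, 5145 to 5733 CPM in sham males, 4922 to 7241 CPM in female axotomy and 7350 to 10100 CPM in male axotomy. In males 9 of 9 of these markers rose, and without male sham 2 only 2 of them passed. Per 1000 CPM of these markers, Cntf was 7.56 to 13.7 CPM over the 10 libraries, a 1.82-fold range, where Cntf itself had a 2.91-fold range. That ratio was 7.56 and 8.16 in the male sham libraries and 11.6, 9.62 and 13.7 in the male axotomy libraries. This pairing was chosen after the values were seen, and the part of Schwann cells in the Cntf values was not tested. In the Gencode M21 annotation Cntf lies within Zfp91, a gene of the same strand, so that reads of the shared stretch may be divided between them.

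**Figure D2:**
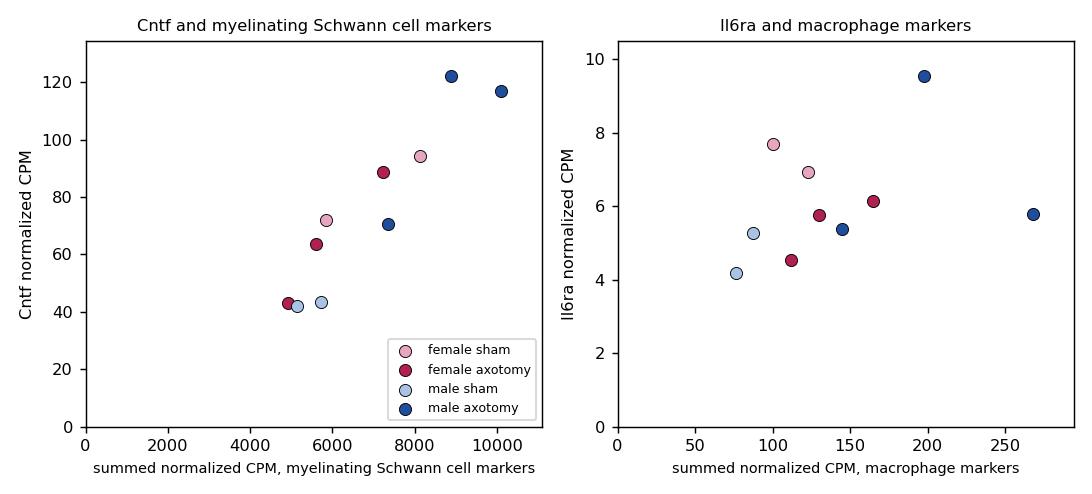
Cntf against the summed markers of myelinating Schwann cells (left) and Il6ra against the summed markers of macrophages (right), both axes in normalized CPM, with a point for each library colored by group. The male axotomy libraries reach 10100 CPM of Schwann cell markers and 122 CPM of Cntf, and the female axotomy libraries lie to the right of or among the female sham libraries for macrophage markers while lying below them for Il6ra.

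Clcf1, a ligand of the Cntf receptor complex, passed in females narrowly and did not pass in males. The levels were 1.38 and 1.72 CPM in female sham, 1.80 and 2.14 CPM in sham males, 3.09, 3.09 and 1.90 CPM in female axotomy and 1.80, 1.97 and 2.93 CPM in male axotomy. The female groups did not overlap, as in 52.1% of all genes, and the male groups did. The log2FC was 0.79 ± 0.28 in females (1.73-fold, padj = 0.0843) and 0.18 ± 0.27 in males (padj = 0.653), and the difference between these responses was −0.62 ± 0.38 (padj = 0.550).

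Most Clcf1 counts did not belong to a coding transcript. A transcript annotated as a retained intron took 74.4% of them and protein-coding transcripts took 16.8%. With protein-coding transcripts alone the female log2FC was 0.98 ± 1.11 (padj = 0.575). The call was also lost when female sham 1 (padj = 0.345), female sham 2 (0.238), male sham 1 (0.121), male sham 2 (0.118), female axotomy 1 (0.228) or female axotomy 2 (0.202) was left out. Skeletal muscle markers summed to 111 CPM in female axotomy 2 and to 7.53 and 7.00 CPM in the other female axotomy libraries. Clcf1 was as high in female axotomy 1 as in female axotomy 2. In Gencode M21 another protein-coding gene overlaps Clcf1 on the same strand. No gene of that name was quantified here, so whether Clcf1 reads were divided with it cannot be told.

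Osm, a product of activated leukocytes, was near the floor of detection. The libraries held 5 and 0 counts in female sham, 1 and 6 in male sham, 5, 4 and 2 in female axotomy and 8, 8 and 12 in male axotomy. The 0 of female sham 2 allows up to 0.0468 CPM, counting error only. The 3 male axotomy libraries had the highest counts, and in CPM they lay above the female axotomy libraries but overlapped male sham. In the fit without the filter the log2FC was 0.70 ± 0.97 in females (padj = 0.774) and 1.25 ± 0.85 in males (padj = 0.395), so no change of Osm was detectable at this depth. Osm and Lif are neighbours on chromosome 11 with 0 coding genes between them.

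**Figure D3:**
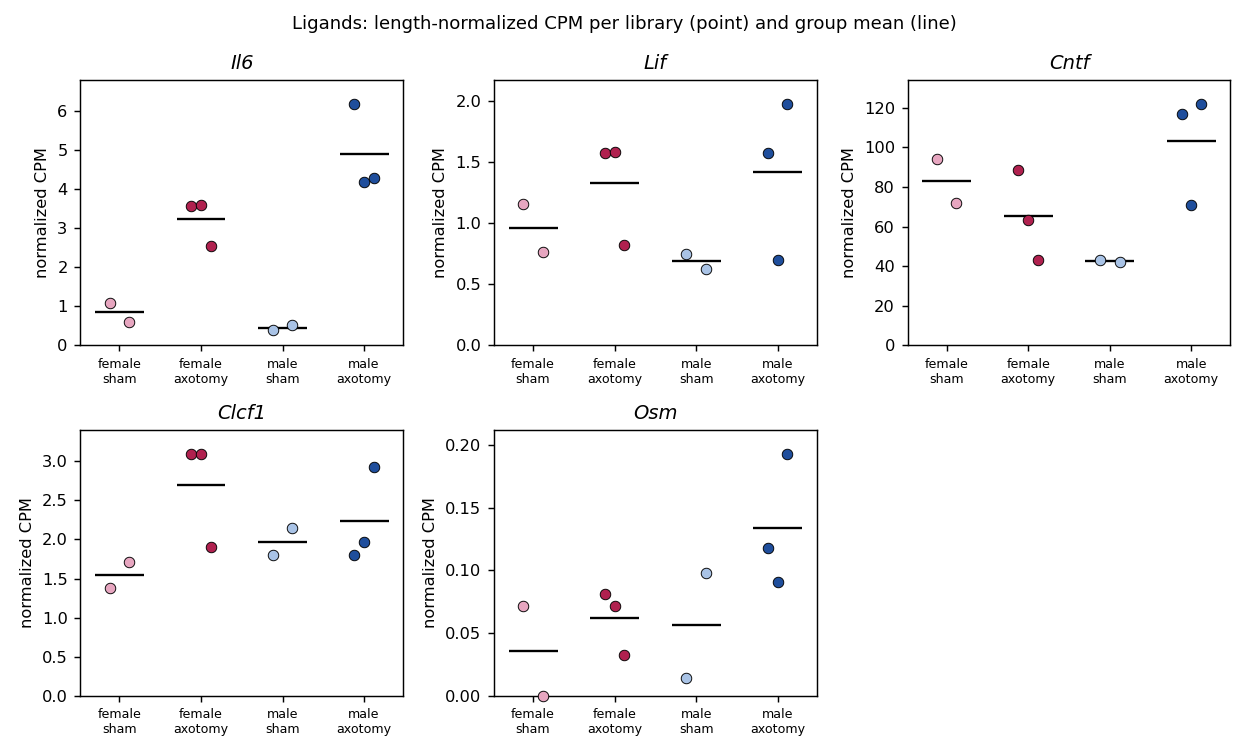
Normalized CPM (y axis, from 0) of the 5 ligands by group (x axis), with a point for each library and a line at the group mean. Il6 separates all axotomy from all sham libraries, Cntf separates them in males, and Osm stays at or below 0.193 CPM.

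Among the receptors, the gp130 gene Il6st did not pass in either sex. It was at 528 and 560 CPM in female sham, 580 and 542 CPM in sham males, 526, 565 and 616 CPM in female axotomy and 491, 564 and 473 CPM in male axotomy. The groups overlapped in both sexes. The log2FC was 0.065 ± 0.097 in females (padj = 0.705) and −0.14 ± 0.096 in males (padj = 0.295). In males it passed when male axotomy 2 was left out (log2FC −0.22, padj = 0.0573).

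Lifr, the partner of gp130 for Lif, Cntf and Clcf1, fell in males and did not pass in females. The levels in sham were 603 and 645 CPM for females and 749 and 787 CPM for males. After axotomy they were 582, 636 and 679 CPM in females and 440, 548 and 563 CPM in males. The male groups did not overlap, the male sham libraries were the highest of all 10, and the male axotomy libraries were the lowest. The log2FC was −0.57 ± 0.11 in males (0.673-fold, padj = 0.00359) and 0.019 ± 0.11 in females (padj = 0.932).

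The fall of Lifr in males passed in all 17 alternatives, with log2FC of −0.64 to −0.42. The smallest change came from the fit without the length term, since the effective length of Lifr was 8668 and 8760 nt in male axotomy 1 and 2 and 7067 to 7610 nt in the other libraries. The 299-nt transcript Lifr-205 held 0.163% of the Lifr counts and 12.3% of the Lifr TPM, while the longest Lifr transcript held 96.6% of the counts. The difference between the sexes was −0.59 ± 0.16 (padj = 0.249) by edgeR, and it passed with DESeq2 (−0.60, padj = 0.0305), without the filter (−0.58, padj = 0.0798) and without male axotomy 2 (−0.64, padj = 0.0496). Sensory neuron markers fell in males too, from 21180 to 22610 CPM in sham to 14210 to 17630 CPM after axotomy. In females they went from 19050 to 21100 CPM to 16910 to 17320 CPM, while Lifr did not fall. Male axotomy 3 had the lowest marker sum of the male axotomy libraries and the highest Lifr. Per 1000 CPM of these markers, Lifr was 35.4 and 34.8 CPM in male sham and 27.6, 31.1 and 39.6 CPM in male axotomy. That ratio was chosen after the values were seen. Of 6 endothelial markers 4 fell in males and none in females. The part of these cells in the Lifr values was not tested.

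Osmr, the partner of gp130 for oncostatin M, had the tightest sham values of the set. It was at 62.7 and 62.6 CPM in female sham, 60.7 and 60.5 CPM in sham males, 73.4, 67.5 and 79.8 CPM in female axotomy and 74.5, 65.2 and 59.3 CPM in male axotomy. All female axotomy libraries lay above female sham, as in 26.2% of all genes, and the male groups overlapped because of male axotomy 3. The log2FC of 0.23 ± 0.098 in females (padj = 0.145) and 0.13 ± 0.098 in males (padj = 0.338) did not pass. In females it passed without male axotomy 1 (padj = 0.0839), without male axotomy 3 (padj = 0.0823) and with the female libraries alone (padj = 0.0610). Osmr and Lifr are neighbours on chromosome 15 with 0 coding genes between them, and their male log2FC differed in sign, although that of Osmr did not pass.

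Il6ra, the subunit that binds interleukin 6, had log2FC of opposite sign in the sexes and did not pass in either. It was at 6.93 and 7.70 CPM in female sham, 4.17 and 5.26 CPM in sham males, 6.15, 5.77 and 4.54 CPM in female axotomy and 9.53, 5.38 and 5.79 CPM in male axotomy. All female axotomy libraries lay below female sham (25.9% of all genes) and all male axotomy libraries above male sham (29.3%), and 1.44% of all genes showed both. The log2FC was −0.41 ± 0.23 in females (padj = 0.273) and 0.55 ± 0.24 in males (padj = 0.1025). The male value passed without male axotomy 2 (log2FC 0.70, padj = 0.0356) and without male axotomy 3 (0.66, padj = 0.0823), with DESeq2 (0.53, padj = 0.0729), without the length term (0.62, padj = 0.0768), with the replicate number as a block (0.65, padj = 0.0600) and with protein-coding transcripts alone (0.55, padj = 0.0970). The female value passed with the female libraries alone (−0.40, padj = 0.0981). The difference between the responses was 0.96 ± 0.34 (padj = 0.334). The macrophage markers, which rose in males, were at 198 CPM in male axotomy 1, where Il6ra was highest, and at 268 CPM in male axotomy 3. Il6ra per 1000 CPM of these markers was lower in every axotomy library (21.6 to 48.2) than in every sham library (54.7 to 76.9), a ratio chosen after the values were seen.

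**Figure D4:**
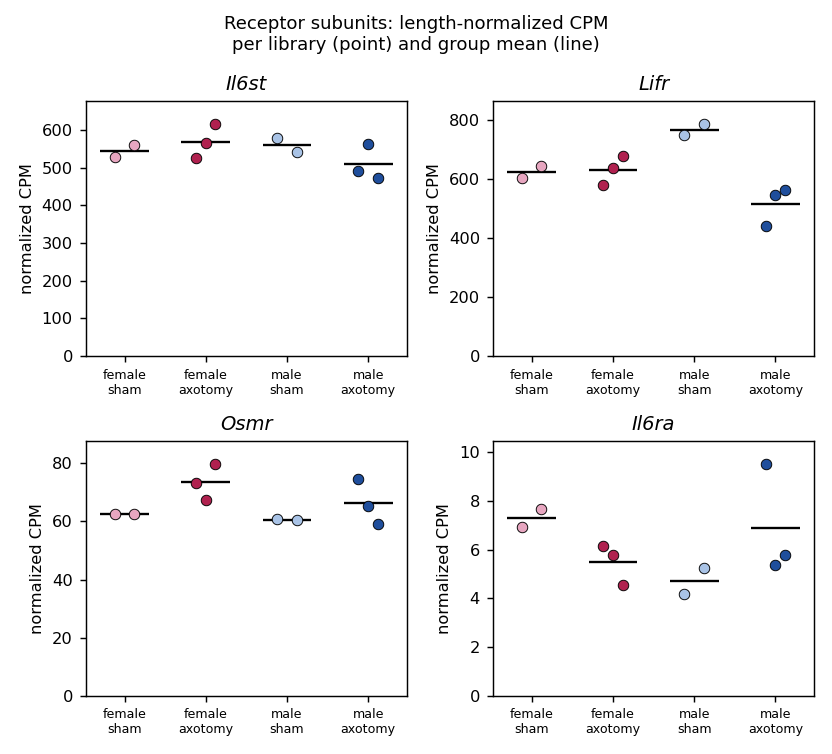
Normalized CPM (y axis, from 0) of the 4 receptor subunits by group (x axis), with a point for each library and a line at the group mean. Lifr falls from 749 and 787 CPM to 440 to 563 CPM in males, Il6st overlaps between groups, and Il6ra lies lower after axotomy in females and higher in males.

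Per transcript length, the order of the members was steep. Cntf (median 143 TPM over the 10 libraries), Lifr (138 TPM) and Il6st (128 TPM) were the most abundant, and their ranges overlapped. Osmr followed at 23.6 TPM, apart from its neighbours on both sides. Il6 had a median of 7.50 TPM and the widest relative range of the tested members, from 1.04 TPM in male sham 1 to 14.1 TPM in male axotomy 1, so that its sham values overlapped those of Il6ra. Il6ra (1.53 TPM), Clcf1 (1.34 TPM) and Lif (0.704 TPM) were lower and overlapped each with the next, and Osm (0.0568 TPM) was below them. The TPM of Lif and Lifr include the short transcripts named above.

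Between the sexes, no member passed by edgeR in any of the 3 comparisons. In sham, where 0.0288% of all genes were called higher and 0.0144% lower in males (0.0432% in either direction), Il6, Cntf and Il6ra were lower and Lifr higher in males at an unadjusted p under 0.05, which makes 4 of 8 members against 3.22% of all genes, and all had padj = 1. After axotomy 1.52% of all genes were called in either direction. There Il6 and Cntf were higher and Lifr lower in males at an unadjusted p under 0.05, with padj of 0.263, 0.314 and 0.207, where 15.4% of all genes had such a p. For the difference in response itself, 4 of 8 members (Il6, Cntf, Lifr and Il6ra) had an unadjusted p under 0.05, against 11.4% of all genes. These comparisons share their libraries, so a low or high male sham group enters both the sham comparison and the difference in response. DESeq2 called 0 members in sham and 1 (Lifr, lower in males) after axotomy. For the difference in response it called 3 (Il6 and Cntf higher, Lifr lower in males). Over all genes DESeq2 called 0.154% in sham, 5.8% after axotomy and 2.57% for the difference in response, in either direction.

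Other ligands and receptors of the family mostly did not pass. Of 11 listed genes 8 were tested, none passed in females by edgeR (DESeq2 called 1 upregulated), and in males 1 was upregulated and 1 downregulated. Over all genes edgeR called 20.1% in either direction in females and 41.9% in males, and DESeq2 called 11.6% upregulated in females. These counts were not tested against other genes. Il11ra1, the receptor of interleukin 11, rose in males (log2FC 0.73 ± 0.17, padj = 0.00807). Cntfr, which completes the receptor of Cntf, fell by 0.42 ± 0.13 on the log2 scale in males (padj = 0.0297). In females these genes had log2FC of 0.27 (padj = 0.310) and −0.22 (padj = 0.304). Without male axotomy 3, 1 gene was upregulated in females and 2 in males. In males no gene was downregulated without male sham 2 and 2 were without male axotomy 1.

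Of 15 genes of the signaling cascade below gp130, 5 were upregulated and 3 downregulated in each sex. The shares over all genes were 10.4% up and 9.74% down in females, and 21.8% up and 20.1% down in males, so that 3 of 15 lower in males was at the level of all genes. Jak2, a kinase bound to these receptors, rose in females (log2FC 0.32 ± 0.082, padj = 0.0289) and males (0.57 ± 0.083, padj = 0.00127). Yes1, a kinase of the Src family, rose by 0.26 (padj = 0.0838) and 0.56 (padj = 0.00186), and Stat5a by 0.78 (padj = 0.00514) and 0.42 (padj = 0.0300). Grb2, an adaptor protein, rose in females (0.48, padj = 0.00558). Stat3 itself had log2FC of 0.13 (padj = 0.442) in females and −0.0054 (padj = 0.975) in males. With 1 library left out the upregulated count ran from 2 to 6 in each sex, and female sham 1, female sham 2, female axotomy 1, male sham 1 and male sham 2 moved it by over 1.5 times in their own sex. The downregulated count ran from 0 to 3 in females and from 2 to 4 in males.

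Of 10 inhibitors of the pathway, 4 rose and none fell in females, where 10.4% of all genes rose and 9.74% fell, and 6 rose and 1 fell in males, where 21.8% rose and 20.1% fell. These counts were not tested against other genes. Socs3, the inhibitor that binds gp130 and is itself induced by Stat3, rose by log2FC 0.89 ± 0.18 in females (padj = 0.0129) and 1.43 ± 0.19 in males (padj = 0.000915). Socs2 rose by 0.98 (padj = 0.00233) and 0.57 (padj = 0.0101), and the phosphatase gene Ptpn2 by 0.45 (padj = 0.0359) and 0.79 (padj = 0.00151). Dusp6, a phosphatase of ERK kinases, rose in males (0.65, padj = 0.00533). Without female sham 2 only 1 inhibitor was upregulated in females, and in males the downregulated count ran from 0 to 2 with 1 library left out. The enzymes Adam10 and Adam17, which release Il6ra from membranes, both passed in males (0.39, padj = 0.0284 and 0.26, padj = 0.0779) and neither in females. Both male calls were lost in at least 1 fit that left out a library (0 to 2 calls), among them those without male sham 1 or 2.

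Of 26 listed targets of Stat3, 22 were tested. In females 10 rose and 2 fell, and in males 15 rose and 2 fell. The injury gene Sprr1a rose most in females (log2FC 3.62 ± 0.31, padj = 0.000409, and 2.46 ± 0.30, padj = 0.000817, in males). The protease inhibitor gene Timp1 rose by 1.78 (padj = 0.00143) and 2.47 (padj = 0.000296), the neuropeptide gene Gal by 2.81 (padj = 0.000480) and 1.80 (padj = 0.00110), and the glial filament gene Gfap by 1.58 (padj = 0.00928) and 2.81 (padj = 0.000607). The median log2FC of the tested targets was 0.45 in females and 0.76 in males. With 1 library left out the upregulated count ran from 4 to 12 in females, where female sham 1, female sham 2, female axotomy 1 and female axotomy 2 moved it most, and from 11 to 17 in males. The downregulated count ran from 0 to 2 in each sex. For comparison, 10.4% of all genes passed as higher and 9.74% as lower after female axotomy, against 21.8% and 20.1% after male axotomy. No test set the target counts against other genes, and the list was drawn up when earlier results of these data were known. No gene of these 5 lists passed for a difference between the responses of the sexes in the edgeR fit used. Without male axotomy 2, 1 gene of the other ligands and receptors, 2 inhibitors, both enzymes and 3 targets passed as higher in males and 1 gene of the cascade as lower, where 10.5% of all genes were called. Without the filter 1 inhibitor passed, and DESeq2 called 1 inhibitor and 1 target higher and 2 targets lower in males.

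**Figure D5:**
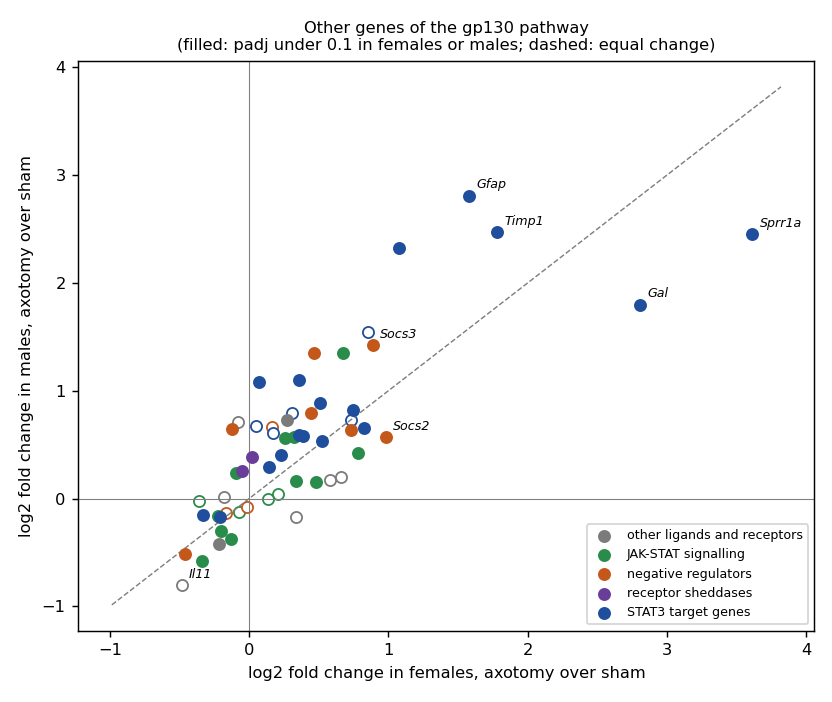
The log2 fold change of axotomy over sham in females (x axis) and males (y axis) for the tested genes of the 5 pathway lists, filled at padj under 0.1 in either sex, with a dashed line of equal change. Sprr1a and Gal lie below the line (3.62 against 2.46 and 2.81 against 1.80), and Gfap, Timp1 and Socs3 lie above it.

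The genes whose pattern over the 10 libraries was most like that of a member were found by the root mean square difference in log2 CPM after centring each gene on its own mean. For Il6, whose own values had a root mean square of 1.35, they were Gfap (0.302) and Timp1 (0.323), both also among the listed targets. For Cntf they were Arhgap45 (0.168) and Plk5 (0.176), for Clcf1 Ly6c1 (0.169) and Mroh7 (0.188), and for Lifr Zkscan2 (0.0727) and Zfp112 (0.0761). These values describe 10 libraries that share their groups.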

How the data were processed

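Libraries were stranded poly-A libraries of RNA pooled from 2 mice, sequenced as paired ends. The authors trimmed reads with Trimmomatic 0.39 and assigned them to Gencode M27 transcripts with Salmon 1.3.0, and deposited estimated counts, TPM and effective lengths per transcript. The estimated (expected) counts are not normalized, and the authors' TPM are scaled per length and per library. The sources used here do not state the strand setting. Batch correction by the authors was not repeated.

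Counts were summed per gene, rounded and fitted in R 4.3.3 with edgeR 4.0.16 (filterByExpr with minimum count 10, TMM, effective length as offset, robust quasi-likelihood F test) for 10 libraries and 4 group means. P values were adjusted by Benjamini-Hochberg over 20836 genes, with padj under 0.1 as threshold. The SE came from the F value. Fits were tested on simulated data, and the alternatives were DESeq2 1.42.0, RLE normalization, no filter, no length term, only the libraries compared, a replicate block, each library left out in turn and, chosen after the data were seen, protein-coding transcripts only. Members, lists and the rule for named genes (all members, up to 4 genes per list by smallest p, and the 2 genes most like each member that passed) were chosen with earlier results of these data known. Libraries of a group hold different mice, and chi-square per degree of freedom between them was 7.08 or more. Floors cover counting error only, while the SE includes the spread between libraries as estimated in the fit. Promoters came from RefSeq (GRCm38.p6), a build other than that of the files, and carry no measurement here. A listed gene is not reported here.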

Additional observations from a re-analysis of the deposited data

Results flagged for a closer look

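The response of Il6ra is listed because every female axotomy library lay below every female sham library and every male axotomy library above every male sham library. Within a sex such separation is common, with 52.1% of all genes in females and 57.5% in males, and 2.45% of all genes separated in opposite directions in the sexes. The male response minus the female response was 0.96 on the log2 scale (SE 0.34). The test of this difference gave padj = 0.334 by edgeR, with 0.0753 without male axotomy 2 and 0.139 to 0.338 in the alternatives that keep all libraries.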

How the results depend on the processing

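No called change of a member turned direction in any alternative, and RLE normalization moved no call of a member (over all genes, the calls for the difference in response went from 4 to 14). With 1 library left out, members upregulated in females numbered 1 to 3. In males 1 to 4 were upregulated and 1 to 2 downregulated. For the difference in response 0 to 3 were higher and 0 to 1 lower in males. After axotomy 0 to 1 were higher and 0 to 2 lower in males. The female count of 3 came from leaving out male axotomy 1 or male axotomy 3, where Osmr passed too. Apart from it and the counts of 1 in each sex, these extremes came from leaving out male axotomy 2. Over all genes, 11% and 13% were upregulated in females without male axotomy 1 and without male axotomy 3. Without male axotomy 2, 25.2% were upregulated and 22.8% downregulated in males. For the difference in response 5.71% were then higher and 4.79% lower in males, and after axotomy 8.81% and 8.46%. The counts of 1 came from fits that called 2.67% to 8.25% of all genes higher in females, and 11.2% or 11.3% in males. Members upregulated in females numbered 1 with the replicate block and 1 with protein-coding transcripts only, where 11.9% and 10.9% of all genes rose. With the female libraries alone 1 member (Il6ra) was downregulated, as were 13.3% of all genes. In males 4 members were upregulated with DESeq2, 4 without the length term and 4 with protein-coding transcripts only. The shares of all genes upregulated in these fits were 20.8%, 23.1% and 24.4%. For the difference in response DESeq2 called 2 members higher and 1 lower, the fit without the filter 1 and 1, and the block 1 lower. Over all genes DESeq2 called 2% higher and 0.571% lower, the fit without the filter 0.461% and 0.0716%, and the block 0.0432% lower. After axotomy 1 member was lower in males with DESeq2 and 1 with the block, against 2.3% and 0.797% of all genes. The cause of these differences between fits was not tested. Among 13 pairs matched by replicate number, residuals correlated from −0.12 to 0.27, and 4 pairs exceeded 0.1. With 2 or 3 libraries per group, these values cannot decide whether matched replicates were handled together. Under the block, Clcf1 in females had padj = 0.105 and Il6ra passed in males (padj = 0.0600). Over all genes, the difference in response had 4 calls in the fit used, 536 by DESeq2, 186 without the filter, 86 with the block and 2177 without male axotomy 2. Osm and Lif, at up to 12 and 128 counts per library, are limited by depth.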

Other observations

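The ratio of the receptor subunits that pair with gp130 was lower after axotomy in males. Lifr exceeded Osmr 7.55-fold and 7.97-fold per length (TPM) in the male sham libraries and 3.61-fold to 5.82-fold in the male axotomy libraries, with no overlap. From protein-coding transcripts alone it was 7.52 and 7.94 in male sham and 4.01 to 5.99 in male axotomy. In females the ratio was 5.89 and 6.31 in sham and 4.85 to 5.77 after axotomy, but from protein-coding transcripts alone it was 5.58 and 6.23 in sham and 4.51 to 5.73 after axotomy, and the groups overlapped. The level of Il6st over Lifr was 0.714 to 0.803 in male sham and 0.872 to 1.16 in male axotomy. From protein-coding transcripts alone it was 0.876 to 0.935 and 1.08 to 1.18. In females it was higher after axotomy too, at 0.901 and 0.908 in sham and 0.921 to 0.941 after axotomy. From protein-coding transcripts alone the female values were 1.031 and 1.082 in sham and 1.083 to 1.138 after axotomy. Among single genes, 52.1% in females and 57.5% in males did not overlap either. These ratios were chosen after the values were seen and were not tested, and the TPM of all transcripts include the short Lifr-205.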
